A study of Mus musculus with 16 samples.

Results

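DNA replication and S-phase genes are the 37 genes described here, out of 24497 genes counted in the series. They were chosen by name, from a fixed list of symbols, and the rule uses no measured value. All 37 passed the filter on low counts, which left 14972 genes in the tests. The list holds the replicative helicase, the factors that license and fire origins, the polymerases with their clamp, the nucleotide-making enzymes, the E-type cyclins with E2f1, and 3 genes of chromatin copying.

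Copying a genome begins when the origin recognition complex, Cdc6 and Cdt1 load the ring-shaped Mcm helicase onto DNA, and geminin prevents a repeat of that loading. Cdc45 and GINS then activate the helicase, primase and the polymerases extend the new strands behind the sliding clamp Pcna, and ribonucleotide reductase supplies the deoxynucleotides. Transcription of these genes is raised by E2F factors at the passage from G1 to S phase and is held down by the retinoblastoma family, and a myoblast that becomes a muscle fibre leaves the cell cycle for good.

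The study sequenced poly(A) RNA from C2C12, a mouse myoblast line that the labels describe as C57BL/6 skeletal muscle of postnatal day 21. Its 16 libraries form 8 groups of 2. MUNC is an enhancer RNA transcribed upstream of Myod1. Differentiating cells in differentiation medium (DM) and proliferating cells in growth medium (GM) were taken from each of 4 stably transfected lines. These were MYOD-/- cells with a vector for spliced MUNC, MYOD-/- cells with an empty vector (EV), wild-type (WT) cells with the MUNC vector and wild-type cells with the empty vector. The MYOD-/- cells, called KO-labelled below, came from CRISPR-Cas9 editing followed by single-cell screening, so that descent from a screened clone and the genotype label cannot be told apart.

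Estimated counts totalled 35832000 to 107733000 per library, with a median of 61151000. Levels are given as CPM, counts scaled to a common library total with TMM factors, or between genes as TPM, the transcript abundance scaled by length. A gene was called when its Benjamini-Hochberg adjusted p over the 14972 genes in edgeR's quasi-likelihood test was at most 0.05. Myod1, the targeted gene, went against the genotype labels. It had 24.4 and 33.1 CPM in DM and 13.9 and 11.9 CPM in GM in the line labelled MYOD-/- with empty vector. In the line labelled WT with empty vector it had 0.143 and 0.0136 CPM in DM and 0.291 and 0.0191 CPM in GM. The line labelled MYOD-/- with MUNC had 16 and 15 CPM in DM and 8.17 and 4.18 CPM in GM, and the line labelled WT with MUNC had 3.18 and 1.7 CPM in DM and 3.72 and 4.06 CPM in GM. The KO-labelled libraries were thus the higher in every vector and medium. Which part of Myod1 was edited is not stated in the labels, so its level checks only whether RNA of the gene was counted. Zrsr1 took 1.49% to 13% of the counts in the 8 libraries labelled replicate 2 and at most 0.0344% in the 8 labelled replicate 1, so the numbers mark 2 sets of libraries that differ. Whether replicates were grown as separate cultures is not stated in the labels; p-values therefore reflect the spread between libraries alone, which may be technical.

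In DM the replication genes fell together in every line. In the KO-labelled MUNC line 35 of 37 were called lower and 0 higher, where 20.4% of all genes tested were called lower. In the KO-labelled EV line 35 of 37 were lower, against 19.7% of all genes. In the WT-labelled MUNC line 37 of 37 were lower, against 19.2% of all genes, and in the WT-labelled EV line 36 of 37 were lower, against 18.3%. In either direction 44.8%, 43.2%, 39.8% and 37.5% of all genes were called in these lines. The median log2 change of the 37 was -1.23, -1.26, -1.66 and -1.66 in that order of lines, beside medians over all genes of 0.05, 0.08, 0.06 and 0.02. Standard errors of the single changes were 0.13 to 0.34. Each of the 37 had a negative change within both replicate numbers in each line. Of the 37, 35 were called lower in all 4 lines. Of all genes at most 18.3% can have been, the share called lower in the WT-labelled EV line. For 35 of the 37 all 8 DM libraries lay below all 8 GM libraries, and Rfc3 and Pold1 were the ones whose media overlapped. The shares of all genes with such a separation, or with a negative change within both replicate numbers, were not counted. In bulk RNA, fewer cycling cells and less of each transcript per cycling cell cannot be told apart.

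The 37 genes summed to 1837 and 1787 CPM in DM against 4215 and 3907 CPM in GM in the KO-labelled MUNC line. The sums were 1901 and 1624 CPM in DM against 3963 and 4439 CPM in GM in the KO-labelled EV line. The WT-labelled MUNC line had 1244 and 1432 CPM in DM against 4408 and 4268 CPM in GM, and the WT-labelled EV line had 1333 and 1532 CPM in DM against 4832 and 4755 CPM in GM. The 4 pairs of media were well apart. The 4 KO-labelled DM libraries were all above the 4 WT-labelled DM libraries, while the GM libraries of the 2 genotype labels overlapped. The sum of 6 fibroblast markers also moved with the medium, at 92.1 to 1169 CPM in DM libraries and 3.21 to 17 CPM in GM libraries. Each of the 6 had a count in at least 1 library, and which of them carried the sum is not given here. Summed adipocyte markers stayed at or below 0.0574 CPM in all libraries. The part of the fibroblast markers in these results was not tested.

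**Figure D1:**
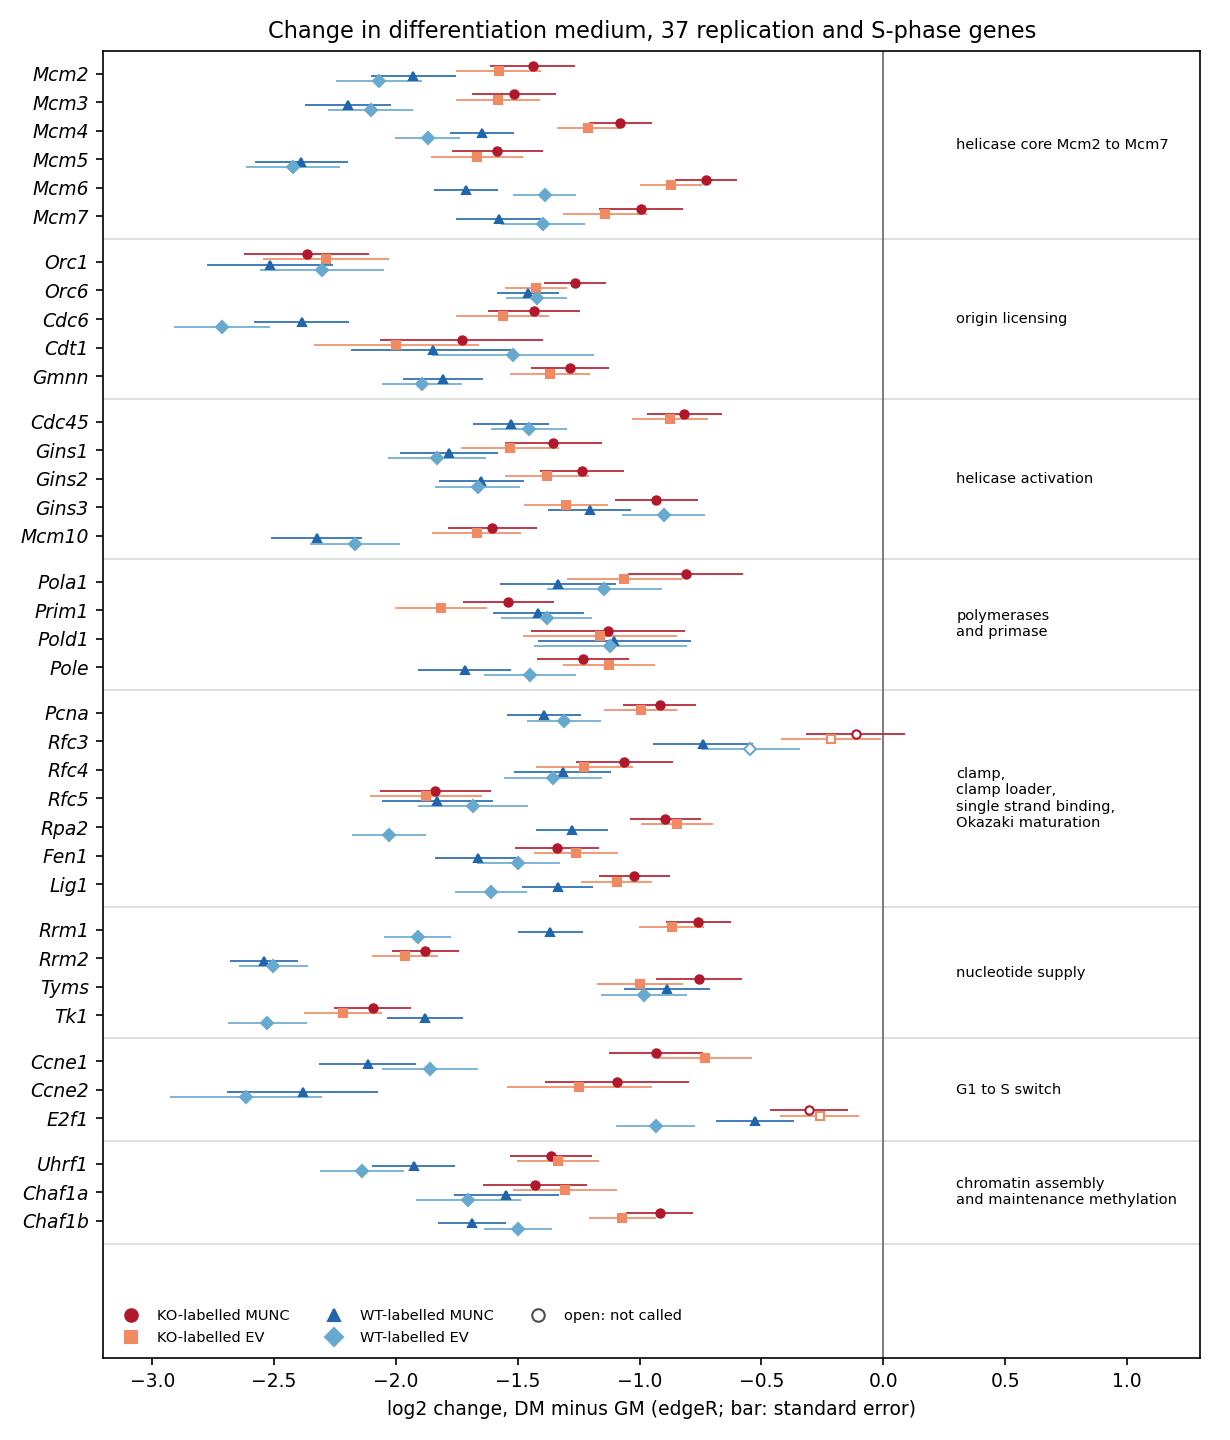
Log2 change (DM minus GM, horizontal axis, edgeR estimate with its standard error) of each of the 37 genes in the 4 lines, grouped by role, with open symbols for changes that were not called. The lowest symbol is Cdc6 at -2.71 in the WT-labelled EV line, and the open ones belong to Rfc3 and E2f1.

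Promoter windows of 31 of the 37 genes were found in the RefSeq table of GRCm38.p6, each reaching from 250 bases before to 50 bases after an annotated start. For the printed genes below, that start is the first base of the gene's listed span, read along its strand, in Mcm2, Mcm3, Mcm6 and Orc6. It lies 41, 228, 442 and 3749 bases inside the span in Mcm5, Mcm7, Cdc6 and Orc1. The 6 genes not matched are Ccne2, Gins1, Gins2, Gmnn, Mcm4 and Pole. The windows of the 31 genes were searched on both strands for the E2F-type sequence TTCCCGC and for its relatives, the variant TTCGCGC, the variant TTGCCGC and the variant TTGGCGC, with overlapping matches counted. Mcm7, Fen1, Lig1 and Uhrf1 have several windows, and a gene counted if any of its windows held a match, here and for all genes. Fen1 and Lig1 counted although a window of each held no match. At least 1 match was present in 21 of 31 genes (67.7%), against 2936 of 27025 genes with a window of the same length (10.9%). The hexamers of the cell cycle homology region, TTTGAA and, as a variant, TTCGAA were found in 6 of the 31 (19.4%, against 21.7% of all genes), CCAAT in 19 (61.3%, against 41.1%) and the GC box GGGCGG in 23 (74.2%, against 38.2%). The median change of the 21 genes with an E2F match, averaged over the 4 lines, was -1.29 on the log2 scale, and that of the 10 without was -1.40. A match is a description of the letters and no match says only that they are not in this window.

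Stretches of 120 bases are printed for 6 helicase and licensing genes that hold matches, to show how they are placed, and for Mcm2 and Orc6, which hold none in their windows. They run 5′ to 3′ in the direction of the gene, from RefSeq on GRCm38.p6, with E2F matches of either strand in capitals. Mcm3 is at chr1:20820263-20820382 on the minus strand, Mcm5 at chr8:75109294-75109413 on the plus strand, Mcm6 at chr1:128359722-128359841 on the minus strand and Mcm7 at chr5:138171834-138171953 on the minus strand. Orc1 is at chr4:108579367-108579486 on the plus strand, Cdc6 at chr11:98907953-98908072 on the plus strand, Mcm2 at chr6:88898731-88898850 on the minus strand and Orc6 at chr8:85299562-85299681 on the plus strand. In Mcm3, Mcm5, Mcm6 and Mcm7 the capitals run to 10 bases, where a match on one strand overlaps a match on the other.
Mcm3: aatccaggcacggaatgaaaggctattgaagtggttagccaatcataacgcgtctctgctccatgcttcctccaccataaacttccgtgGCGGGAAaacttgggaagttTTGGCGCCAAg
Mcm5: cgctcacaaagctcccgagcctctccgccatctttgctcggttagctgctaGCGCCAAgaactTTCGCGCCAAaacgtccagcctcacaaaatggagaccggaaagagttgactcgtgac
Mcm6: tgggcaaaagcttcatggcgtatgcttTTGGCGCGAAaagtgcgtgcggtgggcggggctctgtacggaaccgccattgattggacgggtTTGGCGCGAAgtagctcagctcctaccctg
Mcm7: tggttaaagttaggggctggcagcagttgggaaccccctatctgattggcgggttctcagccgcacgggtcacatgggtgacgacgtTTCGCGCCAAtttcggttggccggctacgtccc
Orc1: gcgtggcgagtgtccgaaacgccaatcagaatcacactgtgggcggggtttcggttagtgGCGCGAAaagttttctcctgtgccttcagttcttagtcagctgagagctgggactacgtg
Cdc6: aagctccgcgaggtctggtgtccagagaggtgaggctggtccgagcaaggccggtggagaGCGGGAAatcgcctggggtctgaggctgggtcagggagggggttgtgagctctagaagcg
Mcm2: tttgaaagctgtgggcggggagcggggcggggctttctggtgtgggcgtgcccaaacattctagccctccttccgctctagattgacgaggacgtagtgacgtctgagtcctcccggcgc
Orc6: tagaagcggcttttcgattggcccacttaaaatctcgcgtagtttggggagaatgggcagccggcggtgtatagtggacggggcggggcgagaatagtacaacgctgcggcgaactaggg

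The helicase core, Mcm2 to Mcm7, is the ring of 6 related subunits that unwinds DNA ahead of the fork. All 6 were called lower in each of the 4 lines, with a largest adjusted p of 0.000962 (edgeR). Mcm2 had 67.8 and 59.6 CPM in DM against 167 and 179 CPM in GM in the KO-labelled MUNC line, and 63.9 and 58.3 CPM in DM against 157 and 208 CPM in GM in the KO-labelled EV line. Mcm2 in WT-labelled cells had 35.9 and 44.6 CPM in DM against 144 and 162 CPM in GM with the MUNC vector, and 43.3 and 53.7 CPM in DM against 189 and 217 CPM in GM with the empty vector. Every DM library was below every GM library, and the WT-labelled DM libraries were the lowest. Mcm5 had 72.8 and 57.9 CPM in DM against 200.2 and 192 CPM in GM in the KO-labelled MUNC line, and 69.5 and 57.6 CPM in DM against 184 and 219 CPM in GM in the KO-labelled EV line. Mcm5 in WT-labelled cells had 36.4 and 48 CPM in DM against 214 and 228 CPM in GM with the MUNC vector, and 44.8 and 58.3 CPM in DM against 259 and 295 CPM in GM with the empty vector. The KO-labelled DM libraries overlapped the WT-labelled EV ones for this subunit. Mcm7 had 119.8 and 103 CPM in DM against 219 and 225 CPM in GM in the KO-labelled MUNC line, and 110.3 and 90.8 CPM in DM against 196 and 248 CPM in GM in the KO-labelled EV line. Mcm7 in WT-labelled cells had 63.4 and 82.7 CPM in DM against 216 and 221 CPM in GM with the MUNC vector, and 67.7 and 83.8 CPM in DM against 195 and 205 CPM in GM with the empty vector. By mean TPM Mcm7 was the most abundant of the 6 in both media, with 59 to 113 TPM in DM libraries and 146 to 188 TPM in GM libraries.

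The log2 changes in the KO-labelled MUNC, KO-labelled EV, WT-labelled MUNC and WT-labelled EV lines, an order kept below, were -1.44, -1.58, -1.93 and -2.07 for Mcm2 and -1.51, -1.58, -2.20 and -2.10 for Mcm3. Mcm4 gave -1.08, -1.21, -1.65 and -1.87, and Mcm5 gave -1.58, -1.67, -2.39 and -2.42. Mcm6 gave -0.73, -0.87, -1.71 and -1.39, and Mcm7 gave -0.99, -1.14, -1.58 and -1.40. Standard errors of these changes were 0.13 to 0.19. Mcm5 fell the most of the 6 in every line, and Mcm6 or Mcm7 the least. Within a library, the ratio of the highest to the lowest of the 6 in TPM was 2.26 to 2.69 in DM and 1.73 to 2.22 in GM, without overlap, so the subunits lay further apart in DM.

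Orc1, the largest subunit of the origin recognition complex, was the gene with the lowest change of the 37 in both KO-labelled lines. Orc1 had 4.1 and 3.89 CPM in DM against 18 and 23.1 CPM in GM in the KO-labelled MUNC line, and 5.12 and 3.25 CPM in DM against 16.5 and 24.3 CPM in GM in the KO-labelled EV line. Orc1 in WT-labelled cells had 2.87 and 2.98 CPM in DM against 16.5 and 16.9 CPM in GM with the MUNC vector, and 5.22 and 7.3 CPM in DM against 30.8 and 31 CPM in GM with the empty vector. The highest DM library was at 7.3 CPM and the lowest GM library at 16.5 CPM. The loading factor Cdc6 had the lowest change in the WT-labelled EV line, and its levels separated the media in every line. Cdc6 had 15 and 13.8 CPM in DM against 44 and 34 CPM in GM in the KO-labelled MUNC line, and 16.1 and 10.9 CPM in DM against 39.2 and 40.6 CPM in GM in the KO-labelled EV line. Cdc6 in WT-labelled cells had 7.13 and 6.99 CPM in DM against 39.5 and 34.4 CPM in GM with the MUNC vector, and 9.2 and 10.5 CPM in DM against 69.9 and 59.2 CPM in GM with the empty vector. In DM the 4 KO-labelled libraries lay above the 4 WT-labelled ones, while in GM the WT-labelled EV libraries were the highest. Log2 changes were -2.37, -2.29, -2.52 and -2.30 for Orc1 and -1.43, -1.56, -2.39 and -2.71 for Cdc6.

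Cdt1, which brings the Mcm ring to the origin, and geminin (Gmnn), which binds Cdt1 and blocks that step, fell together. Cdt1 had 26.2 and 22.2 CPM in DM against 62.2 and 97.9 CPM in GM in the KO-labelled MUNC line, and 21.3 and 20.3 CPM in DM against 59.4 and 107 CPM in GM in the KO-labelled EV line. Cdt1 in WT-labelled cells had 14.5 and 20.5 CPM in DM against 56.3 and 69.7 CPM in GM with the MUNC vector, and 20.2 and 35.3 CPM in DM against 73.4 and 85.9 CPM in GM with the empty vector. Replicate 2 was the higher library in each GM group. Gmnn had 11.9 and 12.5 CPM in DM against 34 and 25.5 CPM in GM in the KO-labelled MUNC line, and 11.8 and 10.5 CPM in DM against 29.4 and 28 CPM in GM in the KO-labelled EV line. Gmnn in WT-labelled cells had 8.3 and 9.72 CPM in DM against 33.2 and 29.9 CPM in GM with the MUNC vector, and 9.91 and 10.6 CPM in DM against 42 and 34.2 CPM in GM with the empty vector. No DM library reached a GM library for either gene. Log2 changes were -1.73, -2.0, -1.85 and -1.52 for Cdt1 and -1.29, -1.37, -1.81 and -1.89 for Gmnn, and -1.27, -1.42, -1.46 and -1.42 for Orc6, the smallest subunit of the origin recognition complex. The ratio of Cdt1 to Gmnn in TPM was 0.674 to 1.28 in DM libraries and 0.646 to 1.49 in GM libraries, which overlap.

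**Figure D2:**
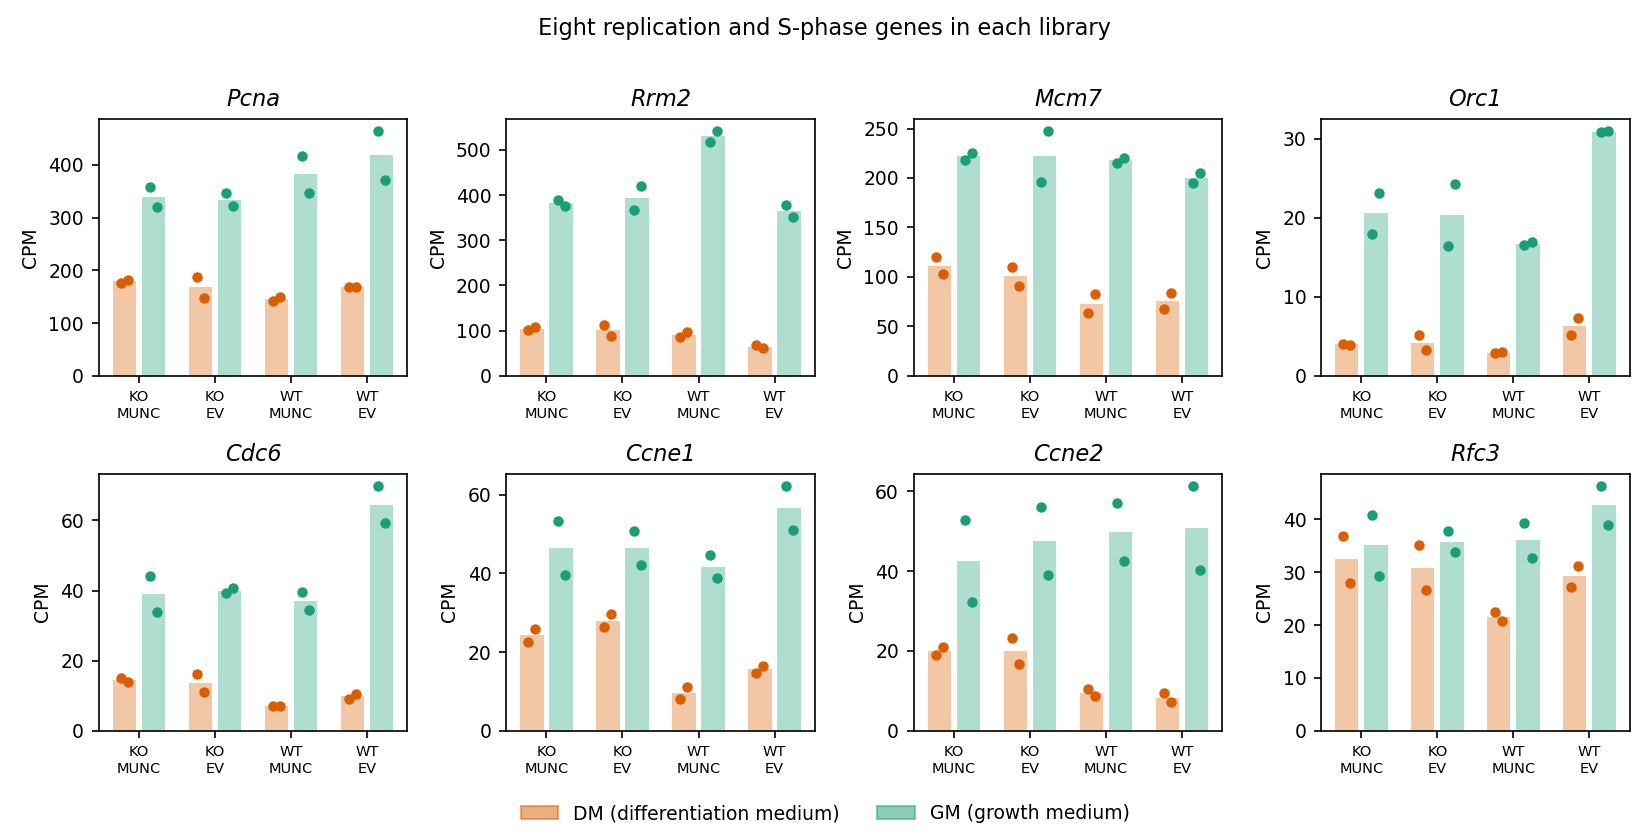
CPM (vertical axes, each from 0 and on its own scale) of 8 of the genes in each library; points are the 2 libraries of a group and bars their mean, with DM left of GM in each of the 4 lines. The DM points lie below all GM points for 7 of the 8 genes, Rfc3 being the exception, and the 2 E-type cyclins are higher in DM in the KO-labelled lines than in the WT-labelled lines.

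Helicase activation was represented by Cdc45, 3 of the GINS subunits and Mcm10, a fork factor that helps the helicase open the duplex. Cdc45 had 25.3 and 22.6 CPM in DM against 45.4 and 38.9 CPM in GM in the KO-labelled MUNC line, and 24.5 and 20.4 CPM in DM against 40.0 and 42.5 CPM in GM in the KO-labelled EV line. Cdc45 in WT-labelled cells had 11.4 and 15 CPM in DM against 39.5 and 36.8 CPM in GM with the MUNC vector, and 14 and 14.9 CPM in DM against 42 and 37.2 CPM in GM with the empty vector. The KO-labelled DM libraries, at 20.4 CPM and above, exceeded every WT-labelled DM library, at 15 CPM and below. Log2 changes were -0.82, -0.88, -1.53 and -1.45 for Cdc45 and -1.60, -1.67, -2.32 and -2.17 for Mcm10. Gins1 gave -1.35, -1.53, -1.78 and -1.83, Gins2 gave -1.24, -1.38, -1.65 and -1.66 and Gins3 gave -0.93, -1.30, -1.20 and -0.90. All 5 were called lower in every line, with a largest adjusted p of 0.00186 (edgeR).

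Of the synthesis enzymes, Pola1 is the catalytic subunit of polymerase alpha, which with the primase Prim1 starts each new strand. Pola1 had 45.1 and 53 CPM in DM against 105 and 67.4 CPM in GM in the KO-labelled MUNC line, and 53.4 and 39.2 CPM in DM against 109 and 84.6 CPM in GM in the KO-labelled EV line. Pola1 in WT-labelled cells had 42.1 and 42.7 CPM in DM against 124 and 90.2 CPM in GM with the MUNC vector, and 48.1 and 47.6 CPM in DM against 116 and 96.1 CPM in GM with the empty vector. Replicate 1 was the higher GM library in each line, and no DM library reached a GM library. Its call in the KO-labelled MUNC line was lost without KO_MUNC_GM replicate 1 or KO_MUNC_DM replicate 1 (adjusted p of 0.148 and 0.0887), the libraries being named by label, vector, medium and replicate. It was also lost in limma on log2(TPM + 1) and log2(TPM + 0.1), at -0.50 and -0.52 with adjusted p of 0.129 and 0.136. The limma fits here and below use TPM values without TMM factors. Their median change over all genes in this line was 0.19 and 0.29, against 0.05 in edgeR. Prim1 gave log2 changes of -1.54, -1.81, -1.42 and -1.38, and Pola1 gave -0.81, -1.06, -1.33 and -1.15. The catalytic subunits of the strand-extending polymerases changed by -1.13, -1.16, -1.10 and -1.12 for Pold1 and -1.23, -1.13, -1.72 and -1.45 for Pole. Pold1 was among the least stable, with standard errors of 0.31 to 0.32 and media that overlapped over the lines. Its DM libraries had 16.9 to 32.5 CPM and its GM libraries 30.3 to 65.3 CPM. Its calls were lost in each line when a single library was left out, with adjusted p up to 0.143 over those fits (without KO_MUNC_GM replicate 2, KO_MUNC_DM replicate 2, KO_EV_GM replicate 2, either KO_EV_DM library, WT_MUNC_GM replicate 2, WT_MUNC_DM replicate 1, WT_EV_GM replicate 2 or WT_EV_DM replicate 1).

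Pcna, the clamp that holds polymerases on DNA, was the most abundant of the 37 per length in both media, at 262 to 382 TPM in DM and 512 to 730.3 TPM in GM, and Orc1 was the least, at 1.96 to 4.68 TPM in DM and 9.98 to 19 TPM in GM. Pcna had 177 and 182 CPM in DM against 358 and 319 CPM in GM in the KO-labelled MUNC line, and 188 and 147 CPM in DM against 346 and 323 CPM in GM in the KO-labelled EV line. Pcna in WT-labelled cells had 142 and 149 CPM in DM against 417 and 347 CPM in GM with the MUNC vector, and 168 and 169 CPM in DM against 464 and 371 CPM in GM with the empty vector. The fall was clear in every line but shallower than that of the licensing genes, at -0.92, -1.0, -1.39 and -1.31 on the log2 scale. The clamp loader subunits differed among themselves. Rfc4 changed by -1.06, -1.23, -1.32 and -1.36 and Rfc5 by -1.84, -1.88, -1.83 and -1.69, while Rfc3 changed by -0.11, -0.21, -0.74 and -0.55.

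Rfc3 was the weakest of the 37 in 3 of the 4 lines and was called in the WT-labelled MUNC line alone, with an adjusted p of 0.0141. Rfc3 had 36.8 and 28 CPM in DM against 40.9 and 29.3 CPM in GM in the KO-labelled MUNC line, and 35.2 and 26.6 CPM in DM against 37.8 and 33.8 CPM in GM in the KO-labelled EV line. Rfc3 in WT-labelled cells had 22.5 and 20.7 CPM in DM against 39.4 and 32.7 CPM in GM with the MUNC vector, and 27.2 and 31.2 CPM in DM against 46.3 and 39 CPM in GM with the empty vector. The media overlapped in both KO-labelled lines and not in the WT-labelled lines. Its adjusted p in the other 3 lines, in the same order, was 0.682, 0.423 and 0.0554 by edgeR's quasi-likelihood test. The call in the WT-labelled MUNC line was lost without WT_MUNC_GM replicate 1 or WT_MUNC_DM replicate 2, with adjusted p of 0.0925 and 0.0859, and in both limma fits on TPM values, with adjusted p of 0.085 and 0.0931. In the KO-labelled lines its sign turned under limma on TPM values, where the median change over all genes was also higher than in edgeR. The difference of its change between KO-labelled and WT-labelled lines was 0.48 ± 0.20 (SE) with an adjusted p of 0.239.

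Rpa2 is a subunit of the protein that coats single-stranded DNA, and Fen1 and Lig1 trim and join Okazaki fragments. Log2 changes were -0.89, -0.85, -1.28 and -2.03 for Rpa2, -1.34, -1.26, -1.66 and -1.50 for Fen1 and -1.02, -1.09, -1.34 and -1.61 for Lig1, and all were called lower in every line. Rpa2 had 25 and 20.3 CPM in DM against 42.8 and 41.3 CPM in GM in the KO-labelled MUNC line, and 24.7 and 20.1 CPM in DM against 38.4 and 42.1 CPM in GM in the KO-labelled EV line. Rpa2 in WT-labelled cells had 14.9 and 17.2 CPM in DM against 40.8 and 37.3 CPM in GM with the MUNC vector, and 12.8 and 15 CPM in DM against 56.5 and 56.9 CPM in GM with the empty vector. The WT-labelled EV line had both the highest GM libraries and the lowest DM library.

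Nucleotide supply included the deepest fall in the WT-labelled MUNC line, that of Rrm2. Rrm1 and Rrm2 encode the large and small subunits of ribonucleotide reductase. Rrm1 had 216 and 239 CPM in DM against 429 and 341 CPM in GM in the KO-labelled MUNC line, and 242 and 224 CPM in DM against 408 and 443 CPM in GM in the KO-labelled EV line. Rrm1 in WT-labelled cells had 136 and 152 CPM in DM against 387 and 354 CPM in GM with the MUNC vector, and 107 and 118 CPM in DM against 434 and 412 CPM in GM with the empty vector. Rrm1 was thus higher in the KO-labelled DM libraries than in any WT-labelled DM library. Rrm2 had 101 and 107 CPM in DM against 389 and 377 CPM in GM in the KO-labelled MUNC line, and 113 and 88.8 CPM in DM against 366 and 419 CPM in GM in the KO-labelled EV line. Rrm2 in WT-labelled cells had 85.7 and 96.5 CPM in DM against 518 and 542 CPM in GM with the MUNC vector, and 67.3 and 61.2 CPM in DM against 378 and 351 CPM in GM with the empty vector. Rrm2 fell further than Rrm1 in every line, with log2 changes of -1.88, -1.96, -2.54 and -2.50 against -0.76, -0.87, -1.37 and -1.91. The ratio of Rrm1 to Rrm2 in TPM was accordingly 0.828 to 1.33 in DM libraries and 0.343 to 0.617 in GM libraries, without overlap.

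Thymidine kinase (Tk1), the salvage enzyme for thymidine, fell steeply, and thymidylate synthase (Tyms), which makes thymidylate anew, fell less. Tk1 had 30.0 and 29.5 CPM in DM against 133 and 121 CPM in GM in the KO-labelled MUNC line, and 30.7 and 28.7 CPM in DM against 124 and 153 CPM in GM in the KO-labelled EV line. Tk1 in WT-labelled cells had 38.1 and 49.1 CPM in DM against 154 and 167 CPM in GM with the MUNC vector, and 31.1 and 35.7 CPM in DM against 176 and 209 CPM in GM with the empty vector. Here the WT-labelled MUNC libraries were the highest in DM. Log2 changes were -2.10, -2.22, -1.88 and -2.53 for Tk1 and -0.76, -1.0, -0.89 and -0.98 for Tyms. The Tyms call in the KO-labelled MUNC line was lost in limma on log2(TPM + 1) and on log2(TPM + 0.1), with adjusted p of 0.0675 and 0.0791.

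Ccne1 and Ccne2 encode cyclin E, the partner of Cdk2 at the start of S phase. Ccne1 had 22.6 and 25.9 CPM in DM against 53.2 and 39.5 CPM in GM in the KO-labelled MUNC line, and 26.4 and 29.6 CPM in DM against 50.9 and 42.1 CPM in GM in the KO-labelled EV line. Ccne1 in WT-labelled cells had 8.13 and 11.1 CPM in DM against 44.6 and 38.8 CPM in GM with the MUNC vector, and 14.8 and 16.4 CPM in DM against 62.3 and 51.1 CPM in GM with the empty vector. The DM libraries of the KO-labelled lines, at 22.6 CPM and above, lay over all WT-labelled DM libraries, at 16.4 CPM and below. Ccne2 had 18.9 and 20.9 CPM in DM against 52.7 and 32.3 CPM in GM in the KO-labelled MUNC line, and 23.2 and 16.8 CPM in DM against 56 and 39 CPM in GM in the KO-labelled EV line. Ccne2 in WT-labelled cells had 10.4 and 8.7 CPM in DM against 57.1 and 42.5 CPM in GM with the MUNC vector, and 9.35 and 7.23 CPM in DM against 61.4 and 40.2 CPM in GM with the empty vector. GM libraries overlapped between genotype labels for both cyclins. Log2 changes were -0.93, -0.73, -2.12 and -1.86 for Ccne1 and -1.09, -1.25, -2.38 and -2.61 for Ccne2. The KO-labelled EV call of Ccne1 was lost without KO_EV_DM replicate 1 (adjusted p of 0.0557) and in both limma fits on TPM values, at -0.46 and -0.47 with adjusted p of 0.0537 and 0.0663. That of Ccne2 was lost in the KO-labelled EV line without KO_EV_DM replicate 2 (0.0628), and in the KO-labelled MUNC line without KO_MUNC_GM replicate 1 (0.0972) or KO_MUNC_DM replicate 1 (0.0631) and in both limma fits (0.0734 and 0.0786).

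E2f1, an activating E2F factor and itself an E2F target, changed less than most of the 37 as a gene. E2f1 had 41.1 and 34.9 CPM in DM against 46.8 and 47.2 CPM in GM in the KO-labelled MUNC line, and 40.6 and 37.8 CPM in DM against 42.1 and 51.9 CPM in GM in the KO-labelled EV line. E2f1 in WT-labelled cells had 35.4 and 40.6 CPM in DM against 49.9 and 59.7 CPM in GM with the MUNC vector, and 28.3 and 36.4 CPM in DM against 58.3 and 65.3 CPM in GM with the empty vector. DM libraries stayed below GM libraries throughout, by narrow margins in the KO-labelled lines. Log2 changes were -0.31, -0.26, -0.53 and -0.93, with adjusted p of 0.141, 0.211, 0.0224 and 0.00108, so that it was called in the WT-labelled lines alone. The WT-labelled MUNC call was lost without WT_MUNC_GM replicate 2 or WT_MUNC_DM replicate 1, with adjusted p of 0.149 and 0.143, and in both limma fits on TPM values, at -0.30 and -0.31 with adjusted p of 0.098 and 0.129. In the KO-labelled EV line the sign turned under limma on TPM values, where the median change over all genes was 0.19 and 0.31.

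The E2f1 total covers a pair of RefSeq transcripts that behaved differently, a comparison chosen after the values were seen. They share 5 of 7 exons exactly. The first exon of NM_001291105, chr2:154569067-154569720 on the minus strand of GRCm38, runs 422 bases into the first intron of NM_007891, whose first exon is chr2:154569489-154569892. The annotated start codon of NM_001291105 lies 557 bases downstream of the other. The last exons differ too, with 1529 bases in NM_007891 (chr2:154559407-154560935) and 1302 bases in NM_001291105 (chr2:154559634-154560935). Which of the differing exons the estimated shares rest on was not tested. NM_001291105 held 67.5% ± 10.2 of the gene's TPM in DM libraries and 39.9% ± 5.88 in GM libraries (SD, n = 8 each). The shares ran from 53.9% to 79.9% in DM and from 28% to 45.2% in GM, without overlap. An exact permutation of the media within lines gave a two-sided p of 0.00154, the smallest that its 1296 arrangements allow, and 0.0108 adjusted over the 14 transcript shares tested among the 37 genes.

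The fall lay in NM_007891, the transcript with the shorter first exon. It had 19.1 and 16 CPM in DM against 26.5 and 29.2 CPM in GM in the KO-labelled MUNC line, and 16.6 and 12.3 CPM in DM against 23.3 and 37.5 CPM in GM in the KO-labelled EV line. This transcript in WT-labelled cells had 8.69 and 10.7 CPM in DM against 28.4 and 33.1 CPM in GM with the MUNC vector, and 5.76 and 9.31 CPM in DM against 35.4 and 42.2 CPM in GM with the empty vector. Its log2 ratio of DM to GM means was -0.67, -1.07, -1.66 and -2.36 in the 4 lines, against 0.10, 0.58, 0.23 and 0.11 for NM_001291105. NM_001291105 had 18.9 to 29.9 CPM in DM libraries and 14.3 to 26.6 CPM in GM libraries, which overlap over the lines. Within the KO-labelled EV line it had 24 and 25.5 CPM in DM against 18.8 and 14.3 CPM in GM, so that both DM libraries were the higher there. The same held, by a narrow margin, in the WT-labelled MUNC line, with 26.7 and 29.9 CPM in DM against 21.5 and 26.6 CPM in GM. In the KO-labelled MUNC and WT-labelled EV lines the media overlapped. These counts divide fragments among overlapping transcripts, as estimated by kallisto. In the same family of tests the share of the main Lig1 transcript, NM_010715, was 90.9% ± 2.77 in DM and 96.1% ± 0.532 in GM (SD, n = 8 each, exact permutation adjusted p of 0.0108). The Gins1 transcript NM_001163476 held 2.99% ± 3.96 in DM and 10.1% ± 3.61 in GM (SD, n = 8 each, exact permutation adjusted p of 0.0288), with overlap. None of the other 11 transcript shares had an adjusted p at or below 0.05 by this exact test.

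**Figure D3:**
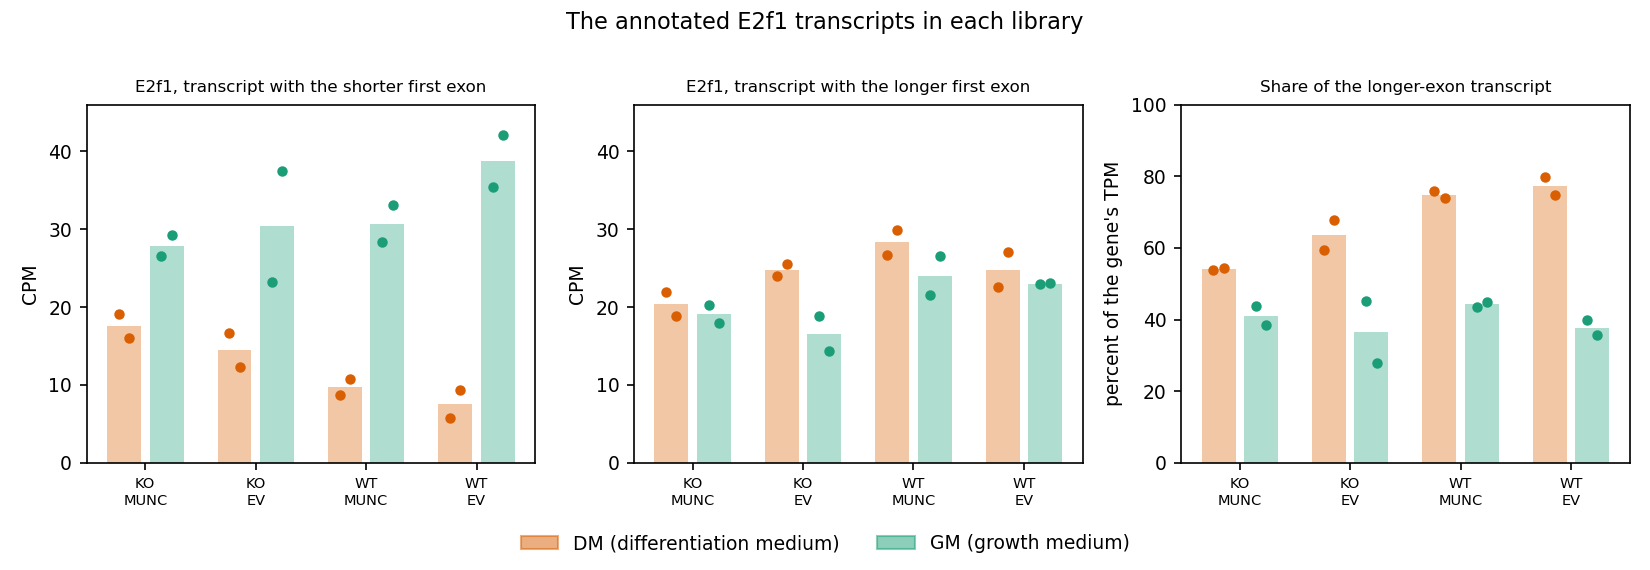
CPM of the 2 annotated E2f1 transcripts (left and middle, vertical axes from 0) and the percent of the gene's TPM held by the one with the longer first exon (right), for each library; points are libraries and bars group means, with DM left of GM. The shorter-exon transcript is lower in all 8 DM libraries than in all 8 GM libraries, and the longer-exon one is not.

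The chromatin genes on the list, the hemimethylated-DNA reader Uhrf1 and the large subunits of the histone chaperone CAF-1, were called lower in each line. Uhrf1 had 64.8 and 59.9 CPM in DM against 162 and 159 CPM in GM in the KO-labelled MUNC line, and 70.2 and 62 CPM in DM against 147 and 186 CPM in GM in the KO-labelled EV line. Uhrf1 in WT-labelled cells had 38.3 and 53 CPM in DM against 173 and 175 CPM in GM with the MUNC vector, and 43.2 and 50.7 CPM in DM against 196 and 218 CPM in GM with the empty vector. The WT-labelled DM libraries were the lowest and the WT-labelled EV libraries in GM the highest. Log2 changes were -1.36, -1.34, -1.93 and -2.14 for Uhrf1, -1.43, -1.31, -1.55 and -1.70 for Chaf1a and -0.92, -1.07, -1.69 and -1.50 for Chaf1b.

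Subunits of the same complexes that are not among the 37 were called less uniformly. This list of partners was drawn up with earlier results of these data known. Of 20 such partners 13 were called lower in the KO-labelled MUNC line and 14 in each of the other 3, and 0 were called higher in any. Of all genes 20.4%, 19.7%, 19.2% and 18.3% were called lower in the same order of lines, and 24.4%, 23.5%, 20.5% and 19.2% higher. The partners called lower were thus well above the share of all genes. The median log2 change of the 20 partners was -0.52, -0.62, -0.81 and -0.70. Orc2 fell like Orc6 (-1.10, -1.22, -1.57 and -1.20), while Orc3 and Orc4 were called in no line. Pole2, the second subunit of polymerase epsilon, changed by -1.26, -1.47, -1.55 and -1.43. Pold4 was called in no line, nor was Rpa3, at -0.33, -0.46, -0.38 and -0.62. Rrm2b, the p53-inducible small subunit of ribonucleotide reductase that serves outside S phase, was at 0.62, 0.51, 0.39 and 0.70 and was not called in any line.

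**Figure D4:**
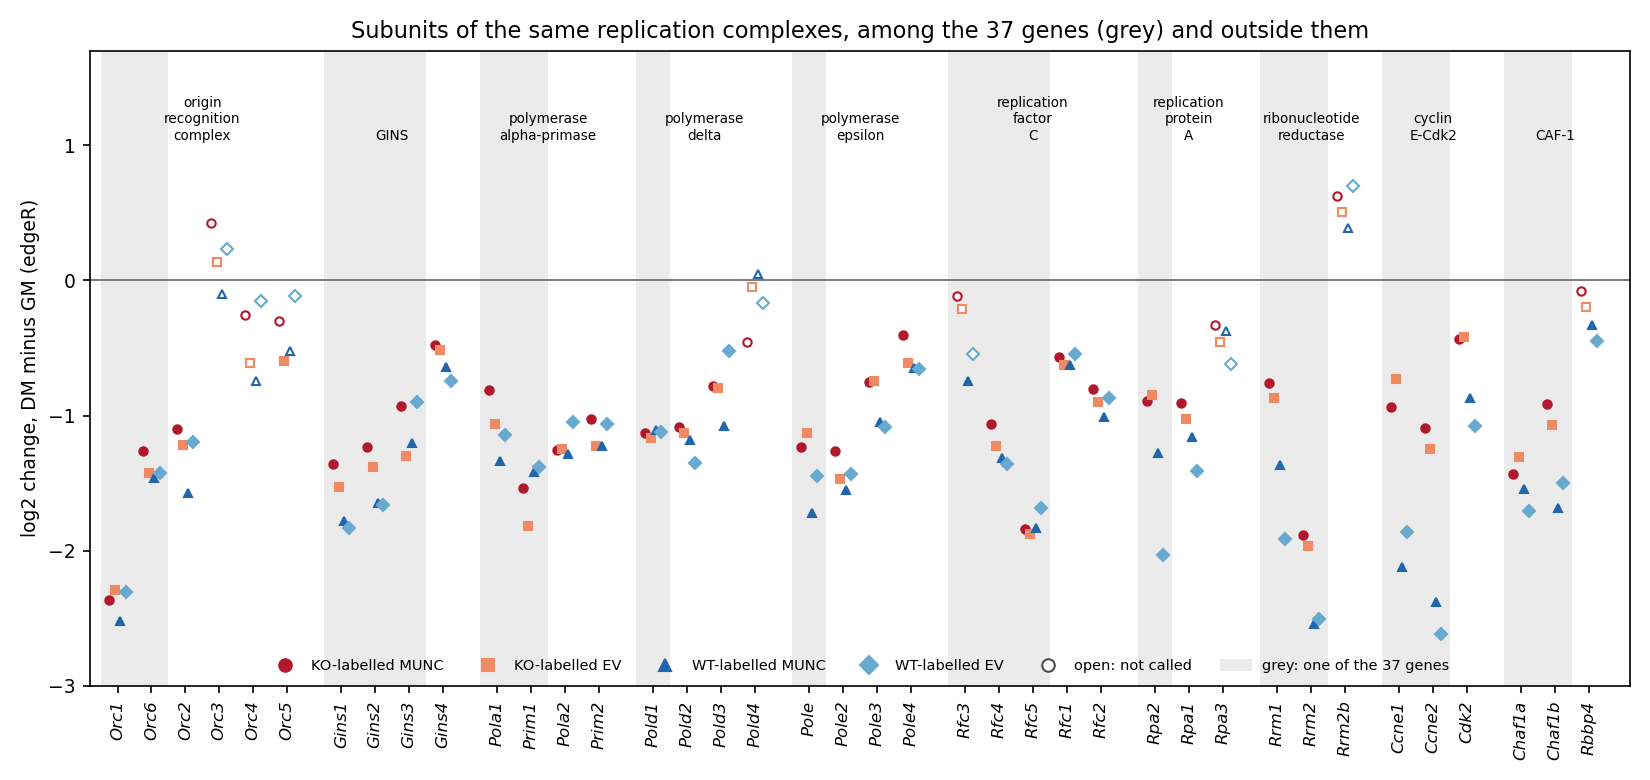
Log2 change (DM minus GM, vertical axis, edgeR estimate) of subunits of 10 complexes in the 4 lines, with grey shading for genes among the 37 and open symbols for changes that were not called. Subunits of a complex spread widely, as from Orc1 at -2.37 to Orc3 at 0.42 and from Rrm2 at -1.88 to Rrm2b at 0.62 in the KO-labelled MUNC line.

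Of a further list of 32 replication factors 28, 30, 30 and 29 were called lower and 1, 0, 0 and 0 higher in the 4 lines, beside 20.4%, 19.7%, 19.2% and 18.3% of all genes lower. Their medians were -1.23, -1.35, -1.70 and -1.58. Recql4, a helicase of origin firing, had the lowest change in both KO-labelled lines (-2.13 and -2.10), Cdca7 in the WT-labelled MUNC line (-2.73) and E2f7, a repressive E2F, in the WT-labelled EV line (-2.69). Mcm9, a helicase of repair, was the 1 called higher, at 0.46 in the KO-labelled MUNC line. All 22 mitosis genes were called lower in every line, with medians of -1.69, -1.82, -1.66 and -1.96. Regulators of G1 and cell cycle exit were mixed. Of 14 tested, 4, 3, 3 and 2 were called higher and 4, 7, 4 and 6 lower in the 4 lines. Of all genes 24.4%, 23.5%, 20.5% and 19.2% were called higher and 20.4%, 19.7%, 19.2% and 18.3% lower. The counts called higher were thus near the shares of all genes. Cdkn1a, the p21 inhibitor, rose in all 4 lines (0.71, 0.78, 0.63 and 0.56) and Ccnd1, cyclin D1, fell in all 4 (-2.50, -2.21, -1.61 and -1.51). The inhibitor Cdkn2c was at -0.33, -0.63, -0.51 and -1.52 and was called lower in both EV lines, and Ccnd2, cyclin D2, was at 0.71, 0.90, 0.71 and 1.23 and was called in no line.

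The fall was smaller in KO-labelled than in WT-labelled lines for most of the 37 in the estimates over both replicate numbers, but not evenly within them. With the empty vector the median difference of the 37 was 0.75 within replicate 1 and 0.02 within replicate 2, and 22 of 37 had the same sign in both. With MUNC it was 0.55 and 0.38, and 31 of 37 had the same sign. For 28 genes the change in both KO-labelled lines was above that in both WT-labelled lines, and for 3 it was below (Pold1, Prim1 and Rfc5). The shares of all genes with these signs or this order were not counted. The difference between the changes was then tested. With the empty vector, 3 of 37 fell less in the KO-labelled line and 0 fell more, where 1.66% of all genes were called higher and 0.922% lower (2.58% in all). These were Cdc6 (1.15 ± 0.26 (SE), adjusted p 0.045), Rpa2 (1.18 ± 0.21 (SE), adjusted p 0.0179) and Rrm1 (1.04 ± 0.19 (SE), adjusted p 0.0193). With the MUNC vector only Mcm6 was called (0.98 ± 0.18 (SE), adjusted p 0.0234), where 1.24% of all genes were called higher (1.38% in either direction). These counts rested on single libraries. With the empty vector 0 were called without any 1 of 6 libraries, 1 without WT_EV_GM replicate 1 and 2 without KO_EV_DM replicate 2. With MUNC 0 were called without any 1 of 7 libraries and 2 without KO_MUNC_GM replicate 1.

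Averaged over both vectors, a comparison added after the data were seen, 12 of 37 fell less in the KO-labelled lines and 0 fell more, where 3.03% of all genes were called higher and 0.942% lower (3.97% in all). The 8 largest differences on the log2 scale were Ccne2 at 1.33 ± 0.30 (SE), Ccne1 at 1.16 ± 0.19 (SE), Cdc6 at 1.05 ± 0.19 (SE), Rrm1 at 0.82 ± 0.13 (SE), Rpa2 at 0.78 ± 0.15 (SE), Mcm5 at 0.78 ± 0.18 (SE), Mcm6 at 0.75 ± 0.13 (SE) and Uhrf1 at 0.68 ± 0.17 (SE). Their adjusted p in edgeR ran from 0.00695 for Rrm1 to 0.045 for Uhrf1. Leaving out a library gave 4 to 7 calls for 13 of the 16, with the fewest without WT_MUNC_DM replicate 1, KO_EV_DM replicate 1 or KO_MUNC_DM replicate 1. The count was 8 without KO_EV_DM replicate 2, 9 without WT_MUNC_DM replicate 2 and 12 without KO_MUNC_GM replicate 1. The median of the 37 was 0.64 within replicate 1 and 0.23 within replicate 2. Ccne1, Mcm6 and Rrm1 kept their call under each alternative tried, the threshold of 0.01 among them. Of 25 settings, the call was lost in 19 for Uhrf1, 17 for Mcm5, 17 for Cdc45 and 16 for Rrm2. It was lost in 16 for Chaf1b, 12 for Mcm4, 11 for Ccne2, 4 for Rpa2 and 1 for Cdc6. Neither cyclin was called with 1 vector alone, where Ccne1 had an adjusted p of 0.0544 with EV and 0.0701 with MUNC and Ccne2 had 0.119 with EV and 0.229 with MUNC.

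By role the counts were small and were not compared by a test, beside 3.03% of all genes called higher. In the helicase core 3 of 6 were called, with a median of 0.61, and in the G1 to S switch 2 of 3. In origin licensing 1 of 5 was called, with a median of 0.10, and in the polymerases and primase 0 of 4, with a median of 0.13. Orc1, at 0.08 ± 0.25 (SE), and Tk1, at 0.05 ± 0.15 (SE), were near 0, although both fell steeply in all lines. Of the mitosis genes 0 of 22 were called by edgeR, with a median of 0.01, and the median over the 37 was 0.42. Among the other replication factors 5 of 32 were called (Timeless, Clspn, Dna2, Hells and E2f7) and among the partner subunits 1 of 20 (Cdk2). Myogenic markers, 9 genes, moved with the same labels and summed to 746 to 893 CPM in KO-labelled DM libraries and 212 to 442 CPM in WT-labelled DM libraries. Endothelial markers, 5 genes with Tie1 at 0, summed to 4.10 to 15.8 CPM in KO-labelled DM libraries and 0.23 to 0.57 CPM in WT-labelled DM libraries. Epithelial markers, 5 genes with Epcam at 0, reached 12.7 to 17.6 CPM in WT-labelled EV libraries in DM and at most 2.07 CPM in the other DM libraries. The part of these markers in the difference was not tested.

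**Figure D5:**
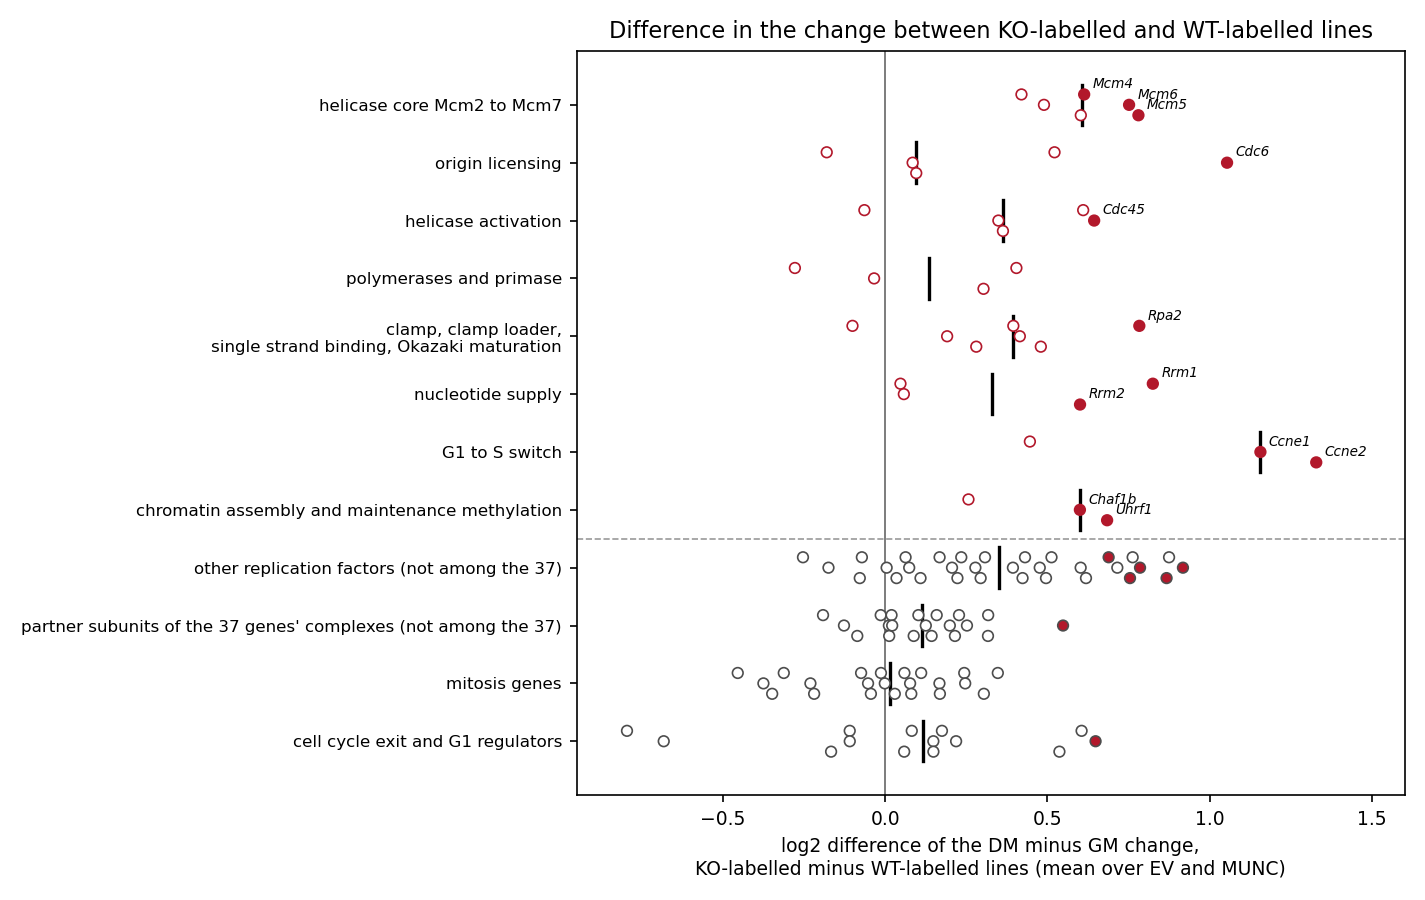
Log2 difference of the DM minus GM change, KO-labelled minus WT-labelled lines averaged over both vectors (horizontal axis), for the 37 genes by role above the dashed line and for 4 other lists below it; filled points were called and vertical bars are list medians. The 12 filled and named points all lie right of 0, and no mitosis gene is filled.

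The levels in each medium were compared as well. In GM, KO-labelled EV cells had 3 of 37 genes lower than WT-labelled EV cells and 0 higher, where 5.77% of all genes were lower and 4.58% higher. These were Mcm3 (-0.72 ± 0.17 (SE)), Cdc6 (-0.69 ± 0.19 (SE)) and Lig1 (-0.52 ± 0.14 (SE)), and none was called when any 1 of the 4 libraries was left out. In GM with the MUNC vector Rrm2 alone was called lower (-0.47 ± 0.13 (SE)), where 5.02% of all genes were lower and 4.98% higher (9.99% in all), and that call was lost without any 1 of the 4 libraries.

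In DM, KO-labelled EV cells had 8 of 37 genes higher than WT-labelled EV cells and 0 lower, where 15.3% of all genes were higher and 16.1% lower (31.4% in all). They were Ccne2 (1.27 ± 0.30 (SE)), Rrm1 (1.05 ± 0.13 (SE)), Ccne1 (0.84 ± 0.19 (SE)), Mcm4 (0.84 ± 0.13 (SE)), Rpa2 (0.69 ± 0.15 (SE)), Rrm2 (0.65 ± 0.13 (SE)), Cdc45 (0.64 ± 0.15 (SE)) and Uhrf1 (0.49 ± 0.17 (SE)). With the MUNC vector 15 of 37 were higher in DM and 1 lower, where 12.8% of all genes were higher and 9.89% lower (22.7% in all). Ccne1 led at 1.34 ± 0.20 (SE), followed by Ccne2 and Cdc6 at 1.06 and 1.03, and Tk1 was the gene that was lower, at -0.55 ± 0.15 (SE). With the empty vector the median over the 37 was 0.38 within replicate 1 and -0.02 within replicate 2, and with MUNC 0.58 and 0.31. In the empty-vector comparison the share of the 37 called in either direction was below that of all genes, and the share called higher was not far above. Without 1 library the counts were 4 to 7 with the empty vector (4 without WT_EV_DM replicate 1 or KO_EV_DM replicate 1) and 5 to 13 with MUNC (5 without WT_MUNC_DM replicate 1, 7 without KO_MUNC_DM replicate 1). These comparisons use the same DM libraries as the differences in change above.

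The MUNC vector was set against the empty vector within each genotype label. Gm45923, taken here as MUNC, was at 43 to 132 CPM in the KO-labelled MUNC libraries and 1821 to 2670 CPM in the WT-labelled MUNC libraries. It was at 1.15 to 12.5 CPM in the EV libraries. In KO-labelled cells 0 of 37 genes were called in GM, in DM or in their change, where 0% of all genes were called by edgeR. At an unadjusted p under 0.05 edgeR gave 191, 152 and 114 of 14972 genes for GM, DM and the change. These are smaller shares than the 0.05 that evenly spread p-values would give. The test was thus strict here, and 0 calls do not show equal levels. Deviations of same-numbered libraries correlated at 0.712 between the KO-labelled EV and MUNC groups in GM. With the replicate number as a block edgeR also called 0 genes in each of the 3 comparisons. DESeq2 gave 0, 4 and 0 genes after adjustment. In WT-labelled cells in GM 5 of 37 were lower with MUNC (Orc1, Cdc6, Mcm3, Rpa2 and Lig1) and Rrm2 was higher, where 7.71% of all genes were lower and 6.04% higher. In DM 4 were lower (Orc1, Mcm3, Mcm10 and Ccne1) and Rrm2 was again higher, where 17.7% of all genes were lower and 15.6% higher (33.3% in all), so that the share of the 37 called in DM was below that of all genes.

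The median over the 37 in WT-labelled cells was -0.18 within replicate 1 and -0.22 within replicate 2 in both media. In DM 34 of 37 and in GM 29 of 37 had the same sign within both replicates, and the shares of all genes that did were not counted. Orc1 moved the most with MUNC in WT-labelled cells, by -1.10 ± 0.25 (SE) in DM and -0.89 ± 0.24 (SE) in GM. Rrm2 was higher by 0.50 ± 0.13 (SE) in DM and 0.54 ± 0.13 (SE) in GM. Between the WT-labelled lines the change from GM to DM was called different for 0 of 37 genes by edgeR. Of all genes 3.33% were called (1.24% higher and 2.09% lower). DESeq2 and limma on log2(TPM + 1) each called 1 of the 37. At an unadjusted p under 0.05 the edgeR count was 3 of 37, beside 2554 of the 14972 genes. These counts rested on single libraries. In GM 0 or 1 of the 37 were called when any 1 library was left out. In DM 0 were called without WT_EV_DM replicate 2, 7 without WT_EV_DM replicate 1, 4 without WT_MUNC_DM replicate 2 and 3 without WT_MUNC_DM replicate 1.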

How the data were processed

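Per the labels' protocols, RNA was extracted with RNeasy kits and made into directional poly(A) libraries (NEBNext Ultra Directional) for paired-end NextSeq sequencing. The authors deposited, per the file headers, an estimated count, a TPM value and an effective length for each RefSeq transcript in each library. The submitters' processing notes name kallisto, with no version. Estimated counts were summed by gene symbol (35818 transcripts, of which 35492 were matched through the RefSeq table of GRCm38.p6, 188 through GENCODE M21 and 138 not at all, at 0.28% to 0.941% of the counts) and rounded to whole numbers. Genes passing filterByExpr were fitted with edgeR 4.0.16 in R 4.3.3, with TMM scaling, 1 mean for each of the 8 groups over all 16 libraries (residual df 8) and the quasi-likelihood test with Benjamini-Hochberg adjustment. The procedure was run on simulated data with 200 genes changed in the KO-labelled EV group in DM and libraries drawn independently. These data hold many more called genes and correlated deviations of same-numbered libraries, which that simulation does not cover. DESeq2 1.42.0, limma 3.58.1 on log2(TPM + 1) and log2(TPM + 0.1), other scalings and filters, and each library left out were alternatives. The limma fits took the TPM values without TMM factors.

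Counts in the text cover all 37 genes. Log2 changes are given for each gene in each line, and differences for the genes that were called, up to 8 per comparison. Levels by library are given for 16 genes of the main roles and the highest and lowest in each line. They are also given for Rpa2, which falls outside that rule and is among the genes called in the differences. Of the other lists the extremes and selected complex subunits are named, the subunits after their values were seen. The genes and lists were chosen with earlier results of these data known. Levels between genes are in TPM. The labels give no shared batch for a replicate number, so the fit has no block; deviations of same-numbered libraries correlated over 0.1 in 23 of 28 pairs of groups, and blocked counts are given with the alternatives.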

Additional observations from a re-analysis of the deposited data

Results flagged for a closer look

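The following differences between lines in the DM minus GM change passed a test of the difference itself in edgeR, at an adjusted p of at most 0.05. All are KO-labelled minus WT-labelled on the log2 scale, and positive values mean a smaller fall in the KO-labelled lines. With the empty vector they were 1.15 for Cdc6, 1.18 for Rpa2 and 1.04 for Rrm1, and with the MUNC vector 0.98 for Mcm6. Averaged over both vectors they were 0.61 for Mcm4, 0.78 for Mcm5, 0.75 for Mcm6, 1.05 for Cdc6, 0.64 for Cdc45, 0.78 for Rpa2, 0.82 for Rrm1, 0.60 for Rrm2, 1.16 for Ccne1, 1.33 for Ccne2, 0.68 for Uhrf1 and 0.60 for Chaf1b. The averaged comparison was added after the data were seen. Of its calls, only those of Ccne1, Mcm6 and Rrm1 held under each alternative tried. With a single vector, over 17 settings, the call was lost in 11 for Cdc6, 8 for Rpa2, 9 for Rrm1 and 9 for Mcm6. In the median over the replication genes the differences were smaller within replicate 2 than within replicate 1. Clone and genotype label cannot be told apart, and the part of either in the differences listed was not tested.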

How the results depend on the processing

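With 2 libraries a group, single libraries decided many counts of differences between lines, and the falls in DM did not depend on them in this way. Of the 37 genes, leaving out 1 library left 33 to 34 (KO-labelled MUNC), 33 to 35 (KO-labelled EV), 35 to 36 (WT-labelled MUNC) and 35 to 36 (WT-labelled EV) called in DM against GM. limma on log2(TPM + 1) moved the median of all genes to 0.19, 0.19, 0.13 and 0.09 in these lines, and with + 0.1 to 0.29, 0.31, 0.23 and 0.16. The higher share among called genes became 72.5%, 72%, 68.2% and 65.4% with + 1, against 54.4%, 54.4%, 51.6% and 51.2% in edgeR. The median over the 37 was -0.92 and -0.97 (KO-labelled MUNC), -0.98 and -0.99 (KO-labelled EV) and -1.43 and -1.46 (WT-labelled MUNC) with + 1 and + 0.1. In the KO-labelled MUNC line it was -1.28 under a 5 CPM filter and -1.29 to -1.18 without 1 library. Signs turned for E2f1 in the KO-labelled EV line (0.0073 and 0.0075 in limma) and for Rfc3 in the KO-labelled EV line (0.022 in both) and the KO-labelled MUNC line (0.155 and 0.158 in limma, -0.37 to 0.15 without 1 library, positive without KO_MUNC_GM replicate 1 or KO_MUNC_DM replicate 2). The cause was not tested.

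Counts of the 37 with a smaller fall in KO-labelled lines (3 with EV, 1 with MUNC, 12 averaged) became 6 and 5 in DESeq2, 7 and 3 in limma with + 1, 6 and 3 with + 0.1, 0 and 0 at a threshold of 0.01, and 1 and 0 with the comparison's own libraries. Without 1 library they were 0 to 2, 0 to 2 and 4 to 12, and the averaged count was 6 with no filter and 3 at 0.01. For levels, KO-labelled against WT-labelled in EV GM (3) gave 5 in DESeq2, 1 with DESeq2's size factors, with no filter and in either limma, 0 at 0.01, with its own libraries or without 1 library. In MUNC GM (1) it gave 0 with size factors, either other filter, limma, 0.01 or its own libraries, and 0 to 1 without 1 library. In EV DM (8) it gave 13 in limma with + 1 and 4 to 7 without 1 library, and in MUNC DM (16) 7 at 0.01 and 5 to 13. For MUNC against EV in WT-labelled cells, GM (6) gave 0 at 0.01, 1 with its own libraries and 0 to 1 without 1 library. DM (5) gave 2 at 0.01 and 0 to 7, among them 3 without WT_MUNC_DM replicate 1 with the balance of directions reversed (2 higher, 1 lower). The change (0) gave 1 in DESeq2 and in limma with + 1.

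With the replicate number as a block, which the labels do not tie to a shared culture or day, the counts in DM against GM were 35, 35, 37 and 37. The replicate block gave 6, 3 and 14 for the smaller fall, 5 and 2 for EV GM and MUNC GM levels, and 11 for MUNC against EV in WT-labelled DM (3 higher, 8 lower). Deviations of same-numbered libraries correlated at -0.0126 to 0.712 over 28 pairs of groups.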
